A study of Mus musculus with 10 samples.

Results

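The 10 genes Erg, Fli1, Ets1, Sox7, Sox17, Sox18, Gata4, Maf, Tal1 and Lmo2 encode transcription factors and cofactors of endothelial cells, and were followed in mouse liver after systemic VEGF-A gene transfer. They were chosen by gene symbol, 10 of the 24011 transcripts that carry a symbol in the deposited table, and all 10 passed the filter on low values. Liver RNA was sequenced from 10 young adult male C57BL/6 mice on day 6 after 1 injection of adenovirus into the tail vein. The AdVEGFA group of 5 mice was given a vector that expresses VEGF-A under the CMV promoter, and the AdCMV group of 5 mice a vector with that promoter and no transgene. Both groups thus carry adenovirus, and there was no group without a vector. The CMV promoter is not restricted to a cell type, the livers were perfused before they were taken, and whole tissue was measured, in which hepatocytes make up most of the RNA. The libraries are labelled as biological replicates, 1 mouse each.

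ETS factors bind a GGAA core, and Erg, Fli1 and Ets1 occupy the enhancers of most genes that are particular to endothelium. The SoxF factors Sox7, Sox17 and Sox18 act beside them in vessel growth and in the choice between arterial, venous and lymphatic fate. Gata4 and Maf are known for the identity of the sinusoidal endothelium of the liver, which is fenestrated and lacks a continuous basement membrane, and Tal1 and its partner Lmo2 form a complex that specifies blood and endothelial cells in the embryo.

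Values are RPKM, reads scaled to transcript length and library size, as the authors deposited them. The libraries held 5758960 to 13494000 mapped tags in the AdCMV group and 5596570 to 8133950 in the AdVEGFA group, as recovered from the steps of the values. A count of 3 reads over 1 kb is worth 0.222 to 0.536 RPKM, a limit that covers counting error only. RPKM is a share of the library. Of the reads summed over transcripts, the major urinary protein (Mup) genes of hepatocytes took 18.0% to 50.5% in the AdCMV mice. In the AdVEGFA mice they took 7.84% to 28.6%. Over all 13933 genes tested, the log2 fold change had a median of 0.38. All changes are AdVEGFA against AdCMV in log2(RPKM + 0.1), so that the change of low genes is understated, and values after median-ratio scaling between libraries, which removes the shift, are given where they matter.

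All 10 factors were higher in the AdVEGFA group. Each was called by limma, with a Benjamini-Hochberg adjusted p under 0.05 over all genes and a log2 fold change over 1, against 13.0% of all genes tested. None was called lower, against 1.54% of all genes. Their log2 fold changes ran from 1.07 for Maf to 3.67 for Sox17, with a median of 2.41 beside the 0.38 of all genes. For all 10, every AdVEGFA mouse lay above every AdCMV mouse, which held for 14.3% of all genes (1.29% lay wholly below), and this was also so for all 10 after median-ratio scaling, against 10.6% of all genes (7.16% wholly below). The two-sided exact permutation test over the 10 mice gave p = 0.00794 for each factor, unadjusted, which is the smallest p that 5 against 5 mice can give. Since liver tissue was measured whole, more endothelial cells and more RNA of a factor per cell cannot be told apart.

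**Figure D1:**
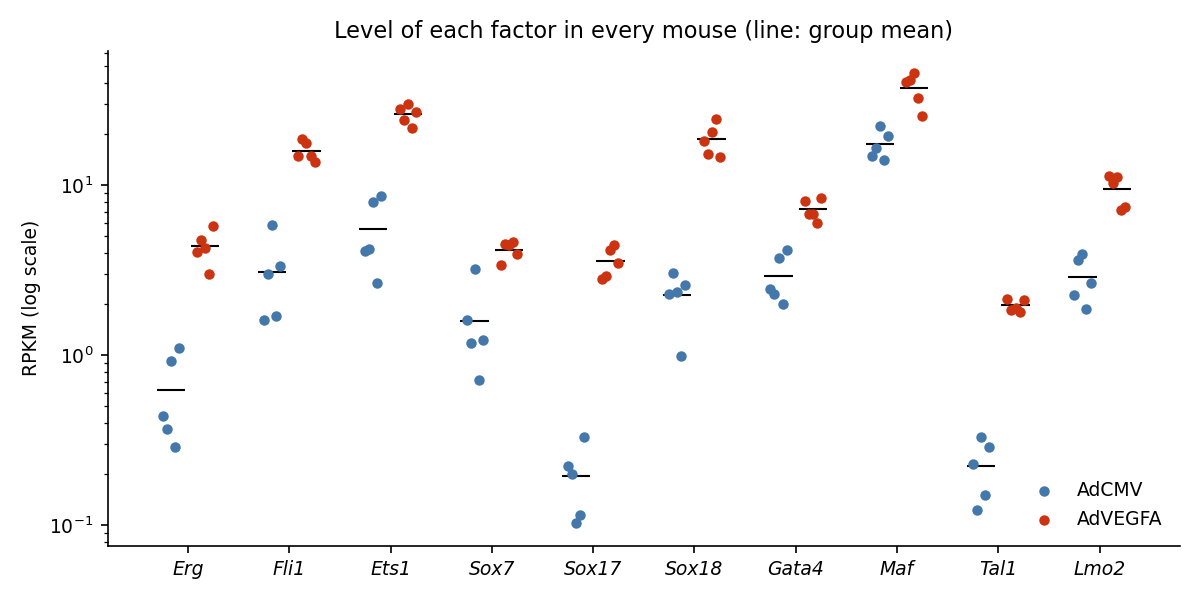
RPKM of each factor on a log axis in the 5 AdCMV mice (blue) and the 5 AdVEGFA mice (red), 1 point a mouse, with the group mean as a line. The groups do not overlap for any of the 10 factors, and the gap is narrowest for Sox7, where the highest AdCMV mouse had 3.23 RPKM and the lowest AdVEGFA mouse 3.38.

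Of the ETS factors, Erg, which endothelial cells carry throughout life, was barely detected in the control livers. Erg (RefSeq NM_133659, mm9 chromosome 16, 95581811 to 95751972) had 0.439, 0.37, 0.923, 0.289 and 1.10 RPKM in AdCMV replicates 1 to 5, from 6 to 16 reads a library. In AdVEGFA replicates 1 to 5 it had 4.04, 4.77, 4.30, 3.02 and 5.74 RPKM. The lowest AdVEGFA mouse thus had 2.73 times the RPKM of the highest AdCMV mouse. The group means were 4.37 ± 0.997 (SD, n = 5) and 0.625 ± 0.364 (SD, n = 5) RPKM, a log2 fold change of 2.74 ± 0.33 (SE) with an adjusted p of 8.87e-06 (limma).

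Fli1, the closest relative of Erg, which platelets and lymphocytes also express, rose from a higher level. Fli1 (NM_008026, mm9 chromosome 9, 32229789 to 32349037) had 1.61, 3.02, 5.82, 1.71 and 3.35 RPKM in AdCMV replicates 1 to 5. In the AdVEGFA replicates it had 14.8, 18.7, 17.8, 14.8 and 13.7 RPKM, a log2 fold change of 2.47 ± 0.29 (SE) with an adjusted p of 7.57e-06 (limma). AdCMV replicate 3 was the highest control, and all AdVEGFA mice lay at least 2.35 times above it.

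Ets1, a factor of endothelial cells and also of T and NK cells, was the most abundant of the 3 in both groups. Ets1 (NM_001038642, mm9 chromosome 9, 32503627 to 32565405) had 4.12, 4.19, 8.001, 2.68 and 8.59 RPKM in the AdCMV replicates. The AdVEGFA replicates had 28.2, 24.1, 30.2, 21.6 and 26.9 RPKM, so that no mouse of the groups overlapped (log2 fold change 2.35 ± 0.28 SE, adjusted p = 7.87e-06 by limma). The 3 ETS factors together rose from 9.24 ± 4.41 (SD, n = 5) to 46.5 ± 4.61 (SD, n = 5) RPKM in sum.

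The SoxF factors had log2 fold changes from 1.49 to 3.67, and the ETS factors from 2.35 to 2.74. Sox17, which is known for arterial endothelium, had the largest change of the 10, and only 32 of the 13933 genes tested, or 0.23%, had a larger log2 fold change. This rank depends on the value added before the logarithm: with 1 in place of 0.1 the change of Sox17 was 1.92, below those of Sox18 (2.61), Ets1 (2.15) and Fli1 (2.13). Sox17 (NM_001289465, mm9 chromosome 1, 4481009 to 4487435) had 0.224, 0.2, 0.103, 0.115 and 0.329 RPKM in AdCMV replicates 1 to 5, from 3 to 10 reads a library and 30 reads in all. It had 2.79, 2.91, 4.16, 4.46 and 3.50 RPKM in the AdVEGFA replicates, from 445 reads in all. Every AdVEGFA mouse was at least 8.49 times above the highest AdCMV mouse. The log2 fold change was 3.67 ± 0.30 (SE), with an adjusted p of 2.57e-07 (limma), and the ratio of the mean RPKM was 18.3.

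Sox18, which is needed for lymphatic and vascular development, reached the highest level of the SoxF factors. Sox18 (NM_009236, mm9 chromosome 2, 181404542 to 181406345) had 2.31, 3.03, 2.36, 0.985 and 2.58 RPKM in the AdCMV replicates. In the AdVEGFA replicates it had 18.3, 15.2, 20.5, 24.7 and 14.7 RPKM, a log2 fold change of 3.05 ± 0.27 (SE) with an adjusted p of 3.9e-07 (limma). AdCMV replicate 4 was the lowest control, while AdVEGFA replicate 4 was the highest of all 10 mice.

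Sox7 changed least of the SoxF factors. Sox7 (NM_011446, mm9 chromosome 14, 64562543 to 64569569) had 1.61, 1.18, 3.23, 0.715 and 1.22 RPKM in AdCMV replicates 1 to 5. The AdVEGFA replicates had 3.38, 4.54, 4.44, 4.64 and 3.92 RPKM, and the log2 fold change was 1.49 ± 0.31 (SE), with an adjusted p of 0.0019 (limma). AdCMV replicate 3, which also had less Mup RNA than any other control, nearly reached the AdVEGFA range, and the lowest AdVEGFA mouse had 1.05 times its RPKM.

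Gata4 and Maf, the factors tied to sinusoidal identity, had the smallest log2 fold changes of the 10. With 1 added before the logarithm Sox7 (1.06) came below Gata4 (1.09), and Maf (1.03) had the smallest change there too. Gata4 (NM_008092, mm9 chromosome 14, 63817752 to 63864097) had 2.45, 2.28, 3.71, 2.01 and 4.16 RPKM in the AdCMV replicates. In the AdVEGFA replicates it had 8.10, 6.80, 6.76, 5.99 and 8.43 RPKM, a log2 fold change of 1.32 ± 0.23 (SE) with an adjusted p of 0.000489 (limma). Stellate cells are also known to express Gata4, and the cell of origin is not resolved in these libraries.

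Maf, which Kupffer cells and T cells also express, was the most abundant of the 10 in both groups and had the smallest change. Maf (NM_001025577, mm9 chromosome 8, 118227153 to 118230794) had 14.9, 16.6, 22.2, 14.1 and 19.5 RPKM in AdCMV replicates 1 to 5. The AdVEGFA replicates had 40.7, 41.4, 45.6, 32.5 and 25.4 RPKM, so that AdVEGFA replicate 5 came within 1.14 times of the highest control. The log2 fold change was 1.07 ± 0.21 (SE), with an adjusted p of 0.00118 (limma), and without AdVEGFA replicate 3 it was 0.99 and no longer called.

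Tal1 and Lmo2 differed in level and in change. Tal1, a basic helix-loop-helix factor, was close to the detection limit in the controls. Tal1 (NM_001287388, mm9 chromosome 4, 114730416 to 114744360) had 0.229, 0.123, 0.331, 0.151 and 0.288 RPKM in the AdCMV replicates, from 6 to 11 reads a library. In the AdVEGFA replicates it had 2.15, 1.85, 1.90, 1.81 and 2.11 RPKM, a log2 fold change of 2.71 ± 0.31 (SE) with an adjusted p of 5.4e-06 (limma). The coefficient of variation (SD over mean) of these 5 values was 7.98%, the lowest of any factor in either group on the deposited RPKM, and 15.2% after median-ratio scaling, where that of other factors was lower.

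Lmo2, a LIM protein without a DNA-binding domain that bridges Tal1 and GATA factors, rose less. Lmo2 (NM_008505, mm9 chromosome 2, 103810444 to 103822035) had 2.27, 3.66, 3.94, 1.87 and 2.64 RPKM in the AdCMV replicates and 11.4, 10.3, 11.2, 7.19 and 7.42 RPKM in the AdVEGFA replicates. All AdVEGFA mice lay at least 1.82 times above the highest control. The log2 fold change was 1.71 ± 0.24 (SE), with an adjusted p of 5.49e-05 (limma).

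Windows around the annotated start were at hand for 2 of the 10 factors, Erg and Tal1, and are shown since both genes went from few reads to a clear level. Each runs 5′ to 3′ on the strand of the gene, from 250 bases before the start to 50 bases after it, as RefSeq gives it for GRCm38.p6. The start is that of the transcript listed in the table. The Erg window is chr16:95530316-95530615 on the minus strand and the Tal1 window chr4:115057561-115057860 on the plus strand, and these positions belong to another build than the mm9 positions above. Capitals mark the ETS core GGAA on either strand, which reads TTCC on the other strand.
Erg: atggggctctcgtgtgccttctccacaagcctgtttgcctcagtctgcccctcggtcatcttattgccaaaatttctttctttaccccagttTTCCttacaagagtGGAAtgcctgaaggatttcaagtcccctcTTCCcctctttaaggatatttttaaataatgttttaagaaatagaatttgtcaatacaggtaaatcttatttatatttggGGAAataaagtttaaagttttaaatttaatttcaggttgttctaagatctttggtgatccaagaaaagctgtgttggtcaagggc
Tal1: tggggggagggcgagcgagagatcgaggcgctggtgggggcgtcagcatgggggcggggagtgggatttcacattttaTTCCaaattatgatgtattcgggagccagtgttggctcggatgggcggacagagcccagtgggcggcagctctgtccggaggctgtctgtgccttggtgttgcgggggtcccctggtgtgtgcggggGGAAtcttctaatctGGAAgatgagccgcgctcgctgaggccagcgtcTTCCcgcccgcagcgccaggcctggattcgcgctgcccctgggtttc
Both windows held 4 matches of GGAA, and 96% of all 32851 such windows held at least 1, with a mean of 3.52. The longer GGAAG, which contains that core, matched once in the Erg window and 2 times in the Tal1 window, and was in 71.4% of all windows. ACAAT, a core of SOX sites, GATAA, a core of GATA sites, and the E-box CANNTG had 0 matches in both windows, against 31%, 25.4% and 72.3% of all windows with a match on either strand. Other annotated starts, of which RefSeq windows listed 2 more for Erg and 1 more for Tal1, are not shown. A window of Erg among them held 2 ACAAT, 1 GATAA and 2 CANNTG matches, and the window of Tal1 held 1 GATAA and 1 CANNTG. Such matches describe the letters and are no evidence of binding.

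The order of the levels changed between the groups. In the controls the mean RPKM fell in the order Maf (17.5), Ets1 (5.52), Fli1 (3.10), Gata4 (2.92), Lmo2 (2.88), Sox18 (2.25), Sox7 (1.59), Erg (0.625), Tal1 (0.224) and Sox17 (0.194). Only Maf stood clear of its neighbour there, and all other neighbours overlapped between mice. In the AdVEGFA group the order was Maf (37.1), Ets1 (26.2), Sox18 (18.7), Fli1 (15.96), Lmo2 (9.51), Gata4 (7.22), Erg (4.37), Sox7 (4.18), Sox17 (3.56) and Tal1 (1.96). The ranges did not overlap between Fli1 and Lmo2, between Gata4 and Erg, and between Sox17 and Tal1, and the other neighbours overlapped. Sox18 moved from the sixth place to the third.

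Control mice varied more than AdVEGFA mice for 9 of the 10 factors, and Maf was the exception (19.2% and 21.8%). The coefficient of variation had a median of 43.3% over the 10 factors in the AdCMV mice, from 19.2% to 60.9%, and of 17.4% in the AdVEGFA mice, from 7.98% to 22.8%. AdCMV replicate 4, with the highest Mup share, was the lowest of its group for 7 of the 10 factors, and AdCMV replicate 3 the highest for 5. After median-ratio scaling the median was 30.5% in the controls and 17.0% in the AdVEGFA mice, and Maf (6.50% and 16.2%) and Gata4 (16.5% and 21.9%) varied less in the controls. The part of the Mup genes in this spread was not tested.

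After median-ratio scaling 8 of the 10 factors were called higher, against 7.77% of all genes, and 0 lower, against 3.14%. Gata4 (log2 fold change 0.93, limma adjusted p = 0.00132) and Maf (0.67, limma adjusted p = 0.00249) stayed past the threshold on p and fell below the threshold of 1 on the fold change. The other 8 had log2 fold changes from 1.12 for Sox7 to 3.33 for Sox17. With limma's treat, which tests against a change of 1 in place of 0, Erg, Fli1, Ets1, Sox17, Sox18 and Tal1 were called, against 3.61% of all genes, and Sox7, Lmo2, Gata4 and Maf were not.

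**Figure D2:**
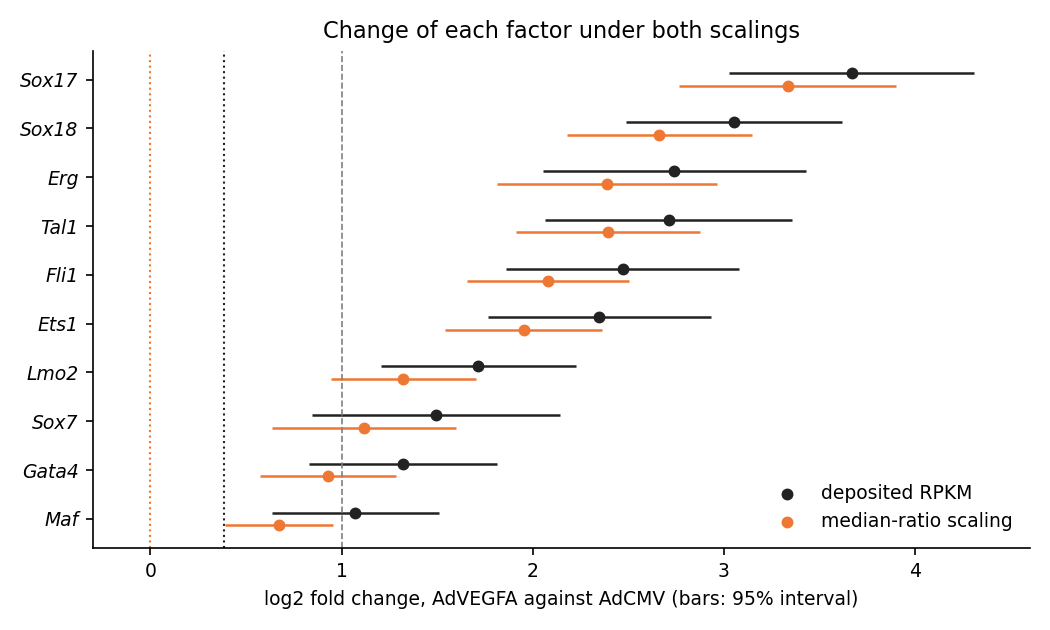
Log2 fold change of each factor with its 95% interval from limma, on the deposited RPKM (black) and after median-ratio scaling (orange). Dotted lines mark the median of all genes tested under each scaling (0.38 and -0.0044) and the dashed line the threshold of 1, under which Gata4 and Maf come to lie after scaling.

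To compare the factors with general endothelial markers, the mean log2 value of 8 such markers (Cdh5, Pecam1, Tie1, Tek, Esam, Egfl7, Ramp2 and Mmrn2) was subtracted in each mouse and the fit repeated over all genes. Scaling between libraries cancels in this difference except for the value added to low genes, and median-ratio scaling, tried after the data had been seen, moved it by at most 0.078 log2 units (Tal1, from 0.10 to 0.18) and changed no call (exact permutation test). The index itself rose by 2.61 log2 units, from 2.06 ± 0.395 (SD, n = 5) to 4.67 ± 0.171 (SD, n = 5), and its genes by 1.43 for Tek to 3.17 for Esam. Relative to it, 94.9% of all genes tested were lower and 0.66% were higher (limma adjusted p under 0.05). Erg (0.13, 95% interval -0.42 to 0.68), Fli1 (-0.14, -0.59 to 0.31), Ets1 (-0.26, -0.66 to 0.13) and Tal1 (0.10, -0.42 to 0.62) did not pass the test in either direction. For Erg and Tal1, which were low in the controls, this depends on the value added before the logarithm. With 1 added both were called lower than the index, at -0.61 (limma adjusted p = 0.00463) and -1.06 (limma adjusted p = 1.15e-05), and with nothing added Tal1 was higher by 0.58 (exact permutation p = 0.0238). Sox18 was 0.44 above the index (interval 0.0045 to 0.88), with a limma adjusted p of 0.0502 that just missed the threshold.

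Sox17 was the only factor of the 10 called higher than the index, by 1.06 log2 units (standard error 0.26, limma adjusted p = 0.00154). Its difference to the index ran from -4.78 to -3.42 in the AdCMV mice and from -3.11 to -2.68 in the AdVEGFA mice, with no overlap. The sign depends on the value added before the logarithm, since Sox17 was far below 1 RPKM in the controls. With 1 added in place of 0.1 it was -0.42 (limma adjusted p = 0.0205), and with nothing added, a choice made after the data had been seen, it was 1.66 (exact permutation p = 0.00794, the smallest possible).

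Lmo2 (-0.89, limma adjusted p = 0.000943), Sox7 (-1.12, limma adjusted p = 0.00053), Gata4 (-1.29, limma adjusted p = 4.71e-06) and Maf (-1.54, limma adjusted p = 1.26e-06) were lower than the index, as were 94.9% of all genes tested. The levels of Lmo2, Sox7, Gata4 and Maf rose, but by less than the mean of the general markers. Whole tissue was measured and other cells also express Gata4 and Maf, so such a difference is no measure of RNA per endothelial cell. Sox7 (1.49) and Lmo2 (1.71) rose by more than Tek (1.43), the general marker with the smallest change. A second index was made of 9 sinusoidal genes (Stab1, Stab2, Lyve1, Clec4g, Fcgr2b, Flt4, Dnase1l3, Gpr182 and Oit3), which rose by 1.47 log2 units, although Dnase1l3 alone fell by 0.98 on the log2 scale (limma adjusted p = 0.00424), under the fold threshold for a call, and was called lower after median-ratio scaling (-1.37, limma adjusted p = 6.57e-05). Relative to this index 3.59% of all genes were higher and 81.4% lower. Gata4 (-0.15, 95% interval -0.46 to 0.17), Sox7 (0.027, -0.53 to 0.58) and Lmo2 (0.25, -0.17 to 0.66) did not pass the test against it. Maf was lower (-0.40, limma adjusted p = 0.0446), with groups that overlapped. Dnase1l3 pulls this index down, while its 8 other genes rose by 1.29 for Fcgr2b to 2.10 for Oit3. Leaving Dnase1l3 out would lower the difference of every factor to this index, and such an index was not fitted. Whether Gata4, Sox7 and Lmo2 would then still miss the threshold was not tested.

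Relative to the sinusoidal index Sox17 (2.20), Sox18 (1.59), Erg (1.27), Tal1 (1.24), Fli1 (1.00) and Ets1 (0.88) were higher, against 3.59% of all genes. Their limma adjusted p ran from 1.26e-05 for Sox17 to 0.000743 for Fli1.

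**Figure D3:**
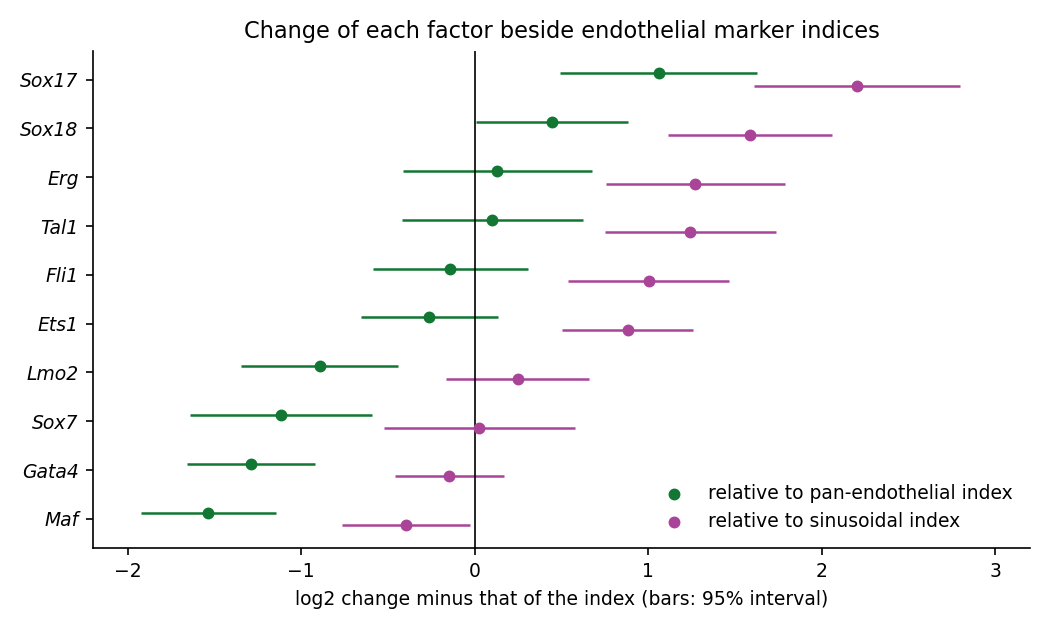
Log2 fold change of each factor minus that of the index of 8 general endothelial markers (green) or of 9 sinusoidal genes (purple), with 95% intervals from limma. Sox17 and Sox18 have intervals above 0 on both scales, that of Sox18 only just on the first (from 0.0045, limma adjusted p = 0.0502). Gata4, Maf, Sox7 and Lmo2 lie below 0 on the first, and Gata4, Sox7 and Lmo2 have intervals that include 0 on the second.

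Ratios between related factors were compared in 8 pairs by two-sided exact permutation tests over the 10 mice, unadjusted. Within SoxF, the log2 ratio of Sox7 to Sox18 fell by 1.56 between the groups and that of Sox17 to Sox7 rose by 2.18, both with an exact p = 0.00794, the smallest possible, and with no overlap. With 1 added before the logarithm the change of Sox17 to Sox7 was 0.86 and with nothing added 2.73, both with the same exact p. Sox7 had from 0.39 to 1.37 times the RPKM of Sox18 in AdCMV livers and from 0.185 to 0.299 times in AdVEGFA livers. Of the summed SoxF RPKM, which went from 4.04 ± 1.40 (SD, n = 5) to 26.4 ± 4.93 (SD, n = 5), Sox7 held 38.3% ± 11.7 (SD, n = 5) in the controls and 16.1% ± 2.73 (SD, n = 5) after AdVEGFA. The share of Sox17 was 5.21% ± 2.28 (SD, n = 5) and 13.5% ± 1.64 (SD, n = 5), and that of Sox18 56.5% ± 10.2 (SD, n = 5) and 70.4% ± 3.62 (SD, n = 5). The log2 ratio of Sox17 to Sox18 changed by 0.62 (exact p = 0.0556), by -0.69 with 1 added before the logarithm and by 1.19 with nothing added (exact p = 0.00794 for both). The sign of this difference thus hangs on the added value, and adding 1 shrinks a gene as low as Sox17 by construction. With nothing added, Sox17 had 0.0437 to 0.128 times the RPKM of Sox18 in AdCMV livers and 0.153 to 0.238 times in AdVEGFA livers. The AdCMV values rest on few Sox17 reads.

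Among the ETS factors the log2 ratio of Erg to Fli1 differed by 0.27 between the groups (exact p = 0.381) and that of Ets1 to Fli1 by -0.12 (exact p = 0.587), which is within the spread between mice, and with these p a difference is neither shown nor excluded. Erg made up 6.58% ± 1.32 (SD, n = 5) of the summed RPKM of the 3 in the controls and 9.38% ± 1.90 (SD, n = 5) in the AdVEGFA mice. The ratio of Gata4 to Maf changed by 0.25 (exact p = 0.333). Gata4 had 10.9 to 36.0 times the RPKM of Sox17 in the AdCMV mice and 1.35 to 2.90 times in the AdVEGFA mice, a log2 difference of -2.35 (exact p = 0.00794), or of -0.83 with 1 added and -2.95 with nothing added (exact p = 0.00794 for both). Tal1 gained on Lmo2 by 1.00 log2 units (exact p = 0.00794), or by -0.17 (exact p = 0.31) with 1 added before the logarithm and by 1.47 (exact p = 0.00794) with nothing added.

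**Figure D4:**
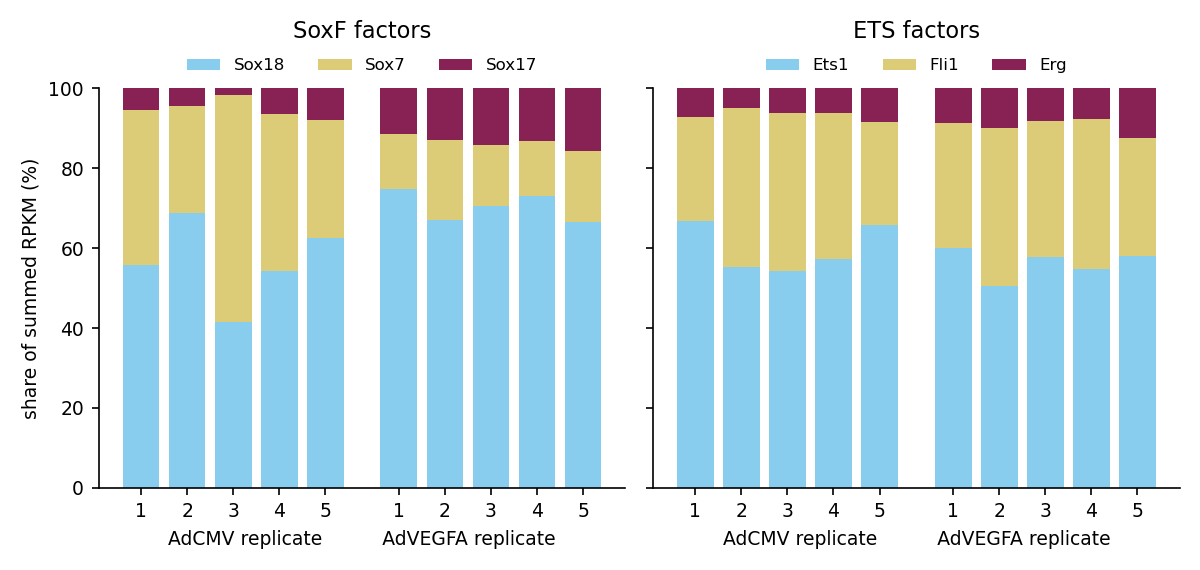
Share of each factor in the summed RPKM of the SoxF factors (left) and of the 3 ETS factors (right), in percent, 1 bar a mouse with AdCMV replicates 1 to 5 and then AdVEGFA replicates 1 to 5. The Sox7 share is smaller in every AdVEGFA mouse (13.7% to 20.1%) than in any AdCMV mouse (26.8% to 56.8%), while the shares of Erg, Fli1 and Ets1 overlap between the groups.

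The wider families were uneven, beside 13.0% of all genes tested that were called higher and 1.54% called lower. Of the 26 ETS genes listed, 21 passed the filter, 9 were called higher (8 after median-ratio scaling) and none lower. Erg, Fli1 and Ets1 are counted among those called. Besides Erg and Fli1 the largest changes were those of Etv4 (log2 fold change 2.82, standard error 0.46), a factor of the PEA3 group with only 5 reads over all AdCMV mice and 71 over the AdVEGFA mice, and Elk3 (2.73, standard error 0.19), a ternary complex factor, from 2.16 ± 0.345 (SD, n = 5) to 14.7 ± 0.997 (SD, n = 5) RPKM. Spi1, the ETS factor of myeloid cells and B cells, was not called, with 6.81 ± 1.52 (SD, n = 5) RPKM in the controls and 8.58 ± 1.96 (SD, n = 5) after AdVEGFA. Gabpa, which most cells express, had 10.2 ± 2.59 (SD, n = 5) and 10.3 ± 0.92 (SD, n = 5) RPKM. Etv2, which specifies endothelium in the embryo, had 0 reads in all 10 mice.

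Of 19 SOX genes 10 passed the filter, 6 were called higher (6 after median-ratio scaling) and none lower. Sox7, Sox17 and Sox18 are counted among those called. Sox4 (3.04, standard error 0.24), a SoxC factor, went from 0.898 ± 0.327 (SD, n = 5) to 7.81 ± 0.856 (SD, n = 5) RPKM, a change close to that of Sox18. Its relative Sox11 (2.97, standard error 0.42) had 14 reads over all AdCMV mice and 298 over the AdVEGFA mice. Sox9, a factor of cholangiocytes, was not called, with 5.34 ± 0.775 (SD, n = 5) and 10.1 ± 2.63 (SD, n = 5) RPKM (0.88, limma adjusted p = 0.00653).

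Of the 6 GATA genes 3 passed the filter, and Gata4 and Gata2 were called higher. Gata2, which blood progenitors and endothelial cells other than sinusoidal ones express, had the larger log2 fold change (2.21, standard error 0.38) from a lower level, 0.129 ± 0.0584 (SD, n = 5) RPKM in the controls and 0.95 ± 0.231 (SD, n = 5) after AdVEGFA. Gata6 was not called (0.38, limma adjusted p = 0.312). Of the 7 MAF genes 5 passed the filter, and Maf was the 1 called. Gata2 was also called after median-ratio scaling, where 1 GATA gene and 0 MAF genes were called in all.

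Of 10 known partners of Tal1 and Lmo2, 9 passed the filter and 6 were called higher, on the deposited RPKM and after scaling alike. The largest change was that of Ldb2 (3.63, standard error 0.24), a LIM-binding adaptor, from 1.41 ± 0.473 (SD, n = 5) to 18.0 ± 2.26 (SD, n = 5) RPKM. Ldb1, the adaptor of the complex in blood cells, was just under the fold threshold (0.97, limma adjusted p = 0.00249). Tcf4, an E protein, rose by 2.15 (standard error 0.20) and Cbfa2t3, a corepressor, by 1.74 (standard error 0.34), while Runx1, the factor of definitive blood formation, was not called (0.16, limma adjusted p = 0.747).

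Of 18 other transcription factors known from endothelium, 12 passed the filter and 9 were called higher, or 6 after median-ratio scaling. Mecom (4.42, standard error 0.25), a zinc finger factor of arterial endothelium and blood stem cells, went from 0.233 ± 0.0753 (SD, n = 5) to 6.86 ± 0.329 (SD, n = 5) RPKM a larger log2 fold change than that of any of the 10 factors. Hlx (3.65, standard error 0.26), Mef2c (3.27, standard error 0.27) and Bcl6b (2.60, standard error 0.34) followed. Prox1, the lymphatic factor that hepatocytes also express, was not called (0.14, limma adjusted p = 0.729). Of 16 endothelial genes known for ETS or SOX elements in their enhancers, 4 of which are also in the general index, 15 were called higher and none lower, with a median log2 fold change of 2.57. Vwf was the exception, with 0.475 ± 0.213 (SD, n = 5) and 0.52 ± 0.583 (SD, n = 5) RPKM (-0.19, limma adjusted p = 0.794).

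Several of the 10 factors are also expressed by other cells, and some markers of those cells moved as well. Markers of T and NK cells, which express Ets1, Fli1 and Maf, were lower in part. Of the 9 tested, 5 were called lower (7 after median-ratio scaling, where 3.14% of all genes were) and none higher, against 1.54% of all genes, and 4 (Cd3d, Cd2, Lck and Gzma) were not called. Their summed RPKM overlapped between the groups and ran from 11.4 to 43.9 in the AdCMV mice and from 9.02 to 17.1 in the AdVEGFA mice. Of the Kupffer cell markers, which accompany Maf, 2 of 9 were called higher, with sums of 139 to 293 and 285 to 444 RPKM. The same number was called after median-ratio scaling, and 13.0% of all genes were called higher before scaling and 7.77% after it. Of the stellate cell markers, which accompany Gata4, 6 of 7 were called higher, with sums of 66.1 to 105 and 112 to 231 RPKM. Most of these sums came from Dcn (means of 71.1 and 130 RPKM), the 1 marker not called (0.84, limma adjusted p = 0.0147).

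Erythroid and megakaryocyte markers bear on Tal1, Lmo2, Fli1 and Gata2. Of 9 tested, 5 were called higher (Epor, Itga2b, Pf4, Gp1bb and Ppbp) and none lower, while the sum, which the globins set, ran from 742 to 1641 RPKM in the AdCMV mice and from 529 to 1846 in the AdVEGFA mice. Gata1, the defining factor of both lineages, had at most 1 read in any AdCMV mouse and 18 reads over the AdVEGFA mice, and Klf1 was not called (0.16, limma adjusted p = 0.783). Of the B cell markers 3 of 4 tested were called higher (1 after median-ratio scaling), with sums of 0.669 to 1.71 and 3.00 to 8.12 RPKM. Of the neutrophil markers 2 of 4 were called higher, Mpo (0 reads over the AdCMV mice and 217 over the AdVEGFA mice) and Elane (1 and 23 reads). S100a8 and S100a9, which set the sums of 14.9 to 96.1 and 15.6 to 192 RPKM, were not called. Of 6 hepatocyte markers 2 were called higher, and none after median-ratio scaling. Of all genes tested 13.0% were called higher, or 7.77% after that scaling. No marker of these 7 lists was at 0 in all 10 mice. The part of these cells in the changes of the 10 factors was not tested. A further list mixed tip cell and capillary genes (Cd34, Emcn, Plvap, Vwf, Esm1 and Apln) and does not stand for 1 type of capillary. Of these 6 genes 5 were called higher, against 13.0% of all genes, led by Esm1 and Cd34, and Vwf was not called. Plvap, among those called, already had a mean of 9.7 RPKM in the AdCMV mice.

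Genes with the most similar profile were sought among 12267 tested genes with a mean over 1 RPKM, by the root mean square difference of log2 values centred over the 10 mice. The nearest to Gata4 was Epas1 at 0.082 log2 units, the closest match of any factor, followed by Nin (0.13) and Etv5 (0.13). Erg was nearest to Kdr (0.19), Hspg2 (0.21) and Flt1 (0.22), and Fli1 to Uaca (0.20), Hdac7 (0.23) and Dpysl3 (0.23). Ets1 was nearest to Slc9a9 (0.16), Slc44a2 (0.18) and Gimap6 (0.18). Among the SoxF factors, Sox18 was nearest to Serpinh1 (0.18), Fhl1 (0.19) and Rps6ka2 (0.23), Sox7 to Fam60a (0.20), Epn2 (0.23) and Dcbld1 (0.23), and Sox17 to Myl9 (0.27), Notch4 (0.34) and Piezo2 (0.35). Maf was nearest to Ggh, Ralgps2 and Tbc1d4 (0.13, 0.13 and 0.15), Tal1 to Shank3, Rasip1 and Tbx2 (0.18, 0.19 and 0.21) and Lmo2 to Hdgfrp3, Zswim6 and Cenpa (0.19, 0.20 and 0.21). Such distances hold the difference between the groups and the spread between libraries alike, and give no test.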

How the data were processed

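Liver RNA of 10 mice was sequenced after rRNA depletion. Reads were mapped with TopHat, per the study's methods. The submitters' processing notes also name HOMER and mm9, without their roles. The authors deposited RPKM values for 24016 RefSeq transcripts in each mouse, normalized to the library total of mapped tags. The table also holds the authors' log fold change and FDR, which were not used. The 5 transcripts with no symbol (at most 0.00534% of reads) were left out. Mapped tags and reads were recovered from the steps of the values, of which at least 99.98% were whole within 0.1 read. The sum of reads over transcripts was 2.31% to 13.9% above the mapped tags, which means that part of the reads counted for several transcripts. The Mup shares are of this sum and not of the mapped tags. The excess was largest in AdCMV replicate 4, with the highest Mup share, and smallest in AdVEGFA replicate 3, with the lowest. No other transcript of the table overlaps the 10 genes.

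The fit took in each gene whose group mean was over 0.5 RPKM in AdVEGFA or AdCMV. It used limma 3.58.1 in R 4.3.3, with moderated variances that follow a trend, on log2(RPKM + 0.1). P-values were adjusted after Benjamini-Hochberg, and a call needed both an adjusted p below 0.05 and a change beyond 1 log2 unit. The study's methods give these thresholds and name no test. Calls relative to an index used the adjusted p alone. Exact permutation tests were run in Python 3.11.15 (numpy 2.4.6). Scripts were tested on simulated data. The members and lists were chosen with earlier results of these data known. The 10 factors are reported in full, the other lists by counts and by up to 4 called genes with the largest change, and genes named beyond this rule, uncalled ones included, were chosen after their values were seen. As alternatives, libraries were scaled by median ratios or upper quartiles, and other fits used no filter and a filter at 1 RPKM, 1 or 0.01 added before the logarithm, voom on the recovered reads, treat, a replicate block, a sinusoidal index, and leaving out each mouse in turn. Nothing added before the logarithm, and median-ratio scaling relative to the index, were tried after the data had been seen.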

Additional observations from a re-analysis of the deposited data

How the results depend on the processing

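On the deposited RPKM 1808 genes were called higher and 214 lower. Median-ratio scaling gave 1082 and 438, upper quartile scaling 1125 and 393, treat 503 and 36, and 1 added before the logarithm 954 higher, so the balance of directions depends on the scaling. Leaving out each mouse in turn gave 1425 to 2357 higher and 178 to 225 lower. Of the 10 factors, 6 were called higher with treat, against 3.61% of all genes. With a mouse left out the number was 9 to 10, against 10.2% to 17.0%. None of the 10 was called lower under any of the 19 alternatives. Without AdVEGFA replicate 3 the call of Maf was lost.

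Relative to the pan-endothelial index 1 factor was higher and 4 were lower, against 0.66% and 94.9% of all genes. The number higher was 2 with a filter at 1 RPKM (0.71% of all genes), 0 with 1 added before the logarithm (0.29%) and 6 with the sinusoidal index (3.59%). With a mouse left out it was 1 to 2 (0.56% to 0.66%), where Sox18 joined Sox17 without AdCMV replicate 1 or 2 or AdVEGFA replicate 5. The number lower was 7 with 1 added (98.7% of all genes), 1 with the sinusoidal index (81.4%), and 4 with any mouse left out (94.2% to 94.8%). Signs turned relative to the index with 1 added for Erg (-0.61), Sox17 (-0.42) and Tal1 (-1.06). Adding 1 shrinks the change of genes below 1 RPKM by construction. With the sinusoidal index signs turned for Fli1 (1.00), Ets1 (0.88), Sox7 (0.027) and Lmo2 (0.25), as that index rose less. With a mouse left out Fli1 ran from -0.26 to 0.015, the last without AdCMV replicate 3, and Tal1 from -0.0073, without AdCMV replicate 2, to 0.18. Among ratios, that of Sox17 to Sox18 passed 0.05 without AdCMV replicate 4 (0.78, exact permutation p = 0.0159), signs turned with 1 added for Erg to Fli1 (-0.40), Ets1 to Fli1 (0.017), Sox17 to Sox18 (-0.69) and Tal1 to Lmo2 (-0.17), and Ets1 to Fli1 ran from -0.22 to 0.0040 with a mouse left out, the last without AdCMV replicate 5.

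Across genes the correlation of same-numbered mice ran from 0.0076 to 0.29, and 3 of 5 correlated best with their own number. Whether the replicate numbers pair the mice was not tested. With the replicate block 1933 genes were higher and 256 lower, all 10 factors were called, and relative to the index 1 was higher and 4 were lower. Depth limits Sox17, Tal1 and Erg in the controls, with 3 to 16 reads a library.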

Other observations

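Some of the factors lie close to each other in the genome. Fli1 and Ets1 face away from each other on chromosome 9 with 155 kb between them and no other transcript of the table in that gap, and rose by 2.47 and 2.35 log2 units. Gata4 and Sox7 lie 698 kb apart on chromosome 14, with 7 transcripts between them, and rose by 1.32 and 1.49. Of these 7, 3 passed the filter. Fam167a, named here after its values were seen, was called higher (log2 fold change 1.98, limma adjusted p = 0.00286) from 0.155 to 0.854 RPKM on average, while Mtmr9 (0.34, limma adjusted p = 0.396) and Pinx1 (0.23, limma adjusted p = 0.554) were not called. The positions are those of the table (mm9).

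Transcripts of related factors share only short identical stretches. In the GENCODE transcripts that match the table, the longest run of identical bases was 22 between Erg and Fli1, 18 between Erg and Ets1, 21 between Fli1 and Ets1, 22 between Sox7 and Sox17, 20 between Sox7 and Sox18 and 29 between Sox17 and Sox18. The length of the reads is not given in the sources used here.

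Of the 20 groups of 5 values of the 10 factors, 0 held a mouse far from the other 4 by Dixon's test (ratio over 0.71).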
